A study of Mus musculus with 8 samples.

Results

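The clustered protocadherins are adhesion genes encoded in 3 neighbouring clusters, alpha, beta and gamma, on mouse chromosome 18. Members were taken by name and selected on measured values, a mean level of at least 0.5 CPM (counts scaled to the size of the library) over 8 cerebellum libraries. All 55 rows named Pcdha, Pcdhb or Pcdhg met this minimum, of 17700 genes listed. They comprised 13 alpha, 22 beta and 20 gamma members, and no row of the family fell below the minimum. Nearest to it was Pcdhb1, at a mean of 0.925 CPM. The libraries came from the cerebellum of C57BL/6JN mice, without any genetic change or agent named in the labels. The old group was 4 mice aged 83, 83, 93 and 102 weeks, and the young group was 4 mice aged 19, 19, 19 and 22 weeks. Each group held 2 males and 2 females. The series' design text names liver, and the tissue was therefore checked on markers. The 14 granule neuron markers summed to 5323 to 9052 CPM and the 15 Purkinje cell markers to 5762 to 8086 CPM in the 8 libraries, against 0.682 to 84.2 CPM for 7 liver genes.

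Each alpha and gamma gene has its own promoter and a large variable exon coding for the extracellular cadherin repeats, and this exon is spliced to constant exons that all genes of the cluster share. Beta genes are made of their own exon alone. Most members are alternative isoforms, which a neuron turns on in its own combination by promoter choice, with CTCF and cohesin holding a chosen promoter to an enhancer. The C-type members at the far end of the alpha and gamma clusters are turned on more uniformly across neurons. The proteins bind their own kind across cell membranes, and the resulting code lets a neuron tell its own branches from those of others. In the cerebellum, gamma members are known for the self-avoidance of Purkinje cell dendrites.

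Total counts ranged from 6079485 to 7236720 per library, so that 3 counts corresponded to 0.415 to 0.493 CPM. That floor covers counting error only. Old 3, young 3 and young 4 had choroid plexus scores of -2.39, -1.596 and -2.12, the median log2 deviation of 10 markers, against 0.45 to 2.48 in the other 5 libraries. The liver genes were highest in old 2, old 3 and young 4, at 84.2, 23.6 and 21.2 CPM. In bulk tissue, fewer expressing cells and less RNA per cell cannot be told apart. How reads in the shared constant exons were assigned is not given in the sources used here. The lowest alpha member had 3 counts in young 1 and at most 24 in any library, so no larger number of reads can have been added to every alpha member. For gamma the same limit is looser, as the lowest member had from 61 counts in young 2 to 89 in old 1. Reads may also be split between close copies. Of the 50-base stretches in a member's longest first exon, 0.0% to 23.4% also occurred in a transcript of another gene for alpha, up to 11.99% for beta and up to 39.5% for gamma, where Pcdhga4 was highest. These shares include bases where the models of neighbouring genes overlap, which are not close copies. Pcdhga4 had 1570 exon bases shared with no other listed gene, against 2608 bases in its longest first exon.

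The family as a whole stood higher in old mice, and most alternative isoforms had positive differences while the C-type members lay near 0. The 55 members together took 0.159% to 0.168% of all counts in the old libraries, against 0.129% to 0.143% in the young ones, so the groups did not overlap. Of the 54 members tested, 44 had a positive log2 fold change (old over young), with a median of 0.25, against 48.6% of 14191 genes and a median of -0.01 over all genes. With edgeR's quasi-likelihood test and a threshold of 0.05 on the adjusted p, 2 members rose with age, Pcdhb14 and Pcdhgb4. The background was 0.12% of genes called in either direction and 0.0987% called higher. At an unadjusted p under 0.05, 21 members were higher in old mice and none lower, and the background for higher was 5.25%. In 13 members all 4 old values lay above all 4 young ones, which held for 3.15% of genes. In no member did all old values lie below, which held for 3.42% of genes. Without old 2, old 3 and young 4, 42 of 54 were positive and 4 were called.

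**Figure D1:**
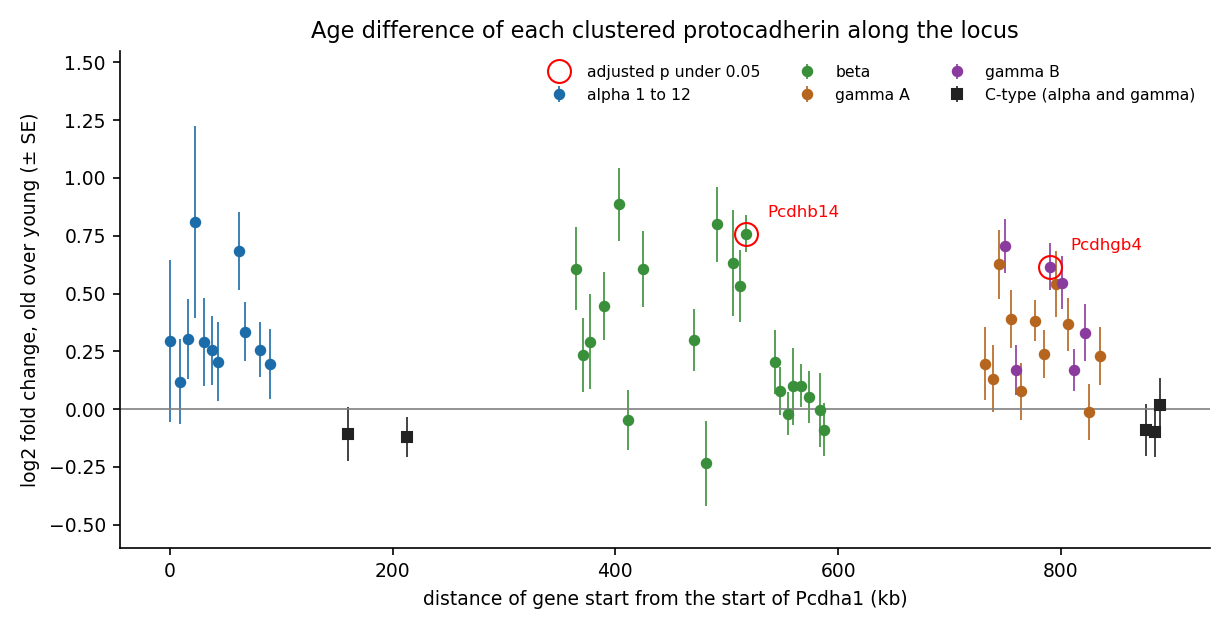
Log2 fold change of old over young (y axis, with the standard error) for the 54 members tested, against the distance of each gene's start from the start of Pcdha1 in kb (x axis). Colours mark the subfamily, squares the 5 C-type members and red rings the 2 members with an adjusted p under 0.05. Most points lie above 0, while the C-type squares and the far end of the beta cluster lie near it.

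Pcdhb14, a beta member, had the smallest p of the family. Its level, as CPM scaled by TMM library factors, was 74.3, 77.3, 75.8 and 76.7 in the old libraries (in the order 1 to 4, as below) and 47.9, 40.8, 47.2 and 43.8 in the young ones. The groups lay far apart, with a gap wider than the spread within either. Old mice averaged 76.0 ± 1.31 and young mice 44.9 ± 3.31 CPM (SD, n = 4 each), which gave a log2 fold change of 0.76 ± 0.08 (SE), or 1.69-fold (edgeR adjusted p = 0.00678). The call was lost without young 3 (adjusted p = 0.0722) and without young 4 (0.0586), and it held in 18 of 20 alternatives, where the adjusted p ranged from 3.3e-09 to 0.0722. Pcdhb14 spans 37447656 to 37456350 on chromosome 18 in GRCm38, as 1 exon that holds its coding sequence and untranslated ends.

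Pcdhgb4, a gamma B member, had 55.8, 48.8, 49.4 and 42.8 CPM in the old and 29.8, 32.5, 32.4 and 33.5 CPM in the young libraries. The lowest old value was in old 4, and it still lay above every young value. The means were 49.2 ± 5.34 and 32.0 ± 1.596 CPM (SD, n = 4 each), a log2 fold change of 0.62 ± 0.10 (SE), with an edgeR adjusted p = 0.0495, close to the threshold. The call held in 1 of 8 fits that left out a library, the one without old 3, and in 10 of 20 alternatives, with an adjusted p from 0.000816 to 0.192. Without old 1, old 2 or old 4 the adjusted p was 0.168, 0.065 and 0.0503, and without young 1 to young 4 it was 0.192, 0.115, 0.14 and 0.0771. Pcdhgb4 runs from its variable exon at 37720369 to the end of the shared gamma exons at 37841870 on chromosome 18.

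In the alpha cluster the 11 alternative members were all positive, at log2 fold changes of 0.12 to 0.81 around a median of 0.29. By edgeR's test no alpha member was called and 2 had an unadjusted p under 0.05. Their summed level was 128, 132, 133 and 117 CPM in the old and 102, 96.9, 120 and 98.4 CPM in the young libraries. The groups met at their edges, where young 3 lay above old 4. The means were 128 ± 7.17 and 104 ± 10.7 CPM (SD, n = 4 each), a ratio of 1.22. With its C-type members the whole alpha cluster had 218 to 246 CPM in old and 198 to 232 CPM in young libraries, which overlapped. The log2 ratio of its means was 0.09, against 0.26 for the beta and 0.25 for the whole gamma cluster. The alpha cluster gave 13.4% to 14.8% of all member counts in old libraries and 15.2% to 16.2% in young ones, without overlap. The beta and gamma shares overlapped between ages. Such sums were compared as values only, without a test.

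Pcdha8 had the largest difference among alpha members whose groups did not overlap. It stood at 10.9, 12.2, 12.4 and 13.4 CPM in old and 6.05, 6.12, 10.7 and 7.86 CPM in young libraries, where young 3 came close to old 1. Its log2 fold change was 0.68 ± 0.17 (SE), with an edgeR adjusted p = 0.179. Pcdha9 and Pcdha11 also had groups that did not overlap. Pcdha9 had 17.4 to 21.5 CPM in old and 13.95 to 17.2 CPM in young mice (0.33 ± 0.13, SE), and Pcdha11 had 17.6 to 18.4 and 14.03 to 16.5 CPM (0.26 ± 0.12, SE). The annotation gives 2 gene models the symbol Pcdha11, so its row may hold reads of a neighbouring member. Pcdha4, the alpha member with the fewest counts, had the largest log2 fold change of the cluster, 0.81, but with an SE of 0.41. Pcdha1, at the 5′ end of the cluster, had 7.06, 5.76, 4.87 and 2.84 CPM in old and 2.02, 4.08, 6.65 and 4.21 CPM in young mice, which overlapped almost fully. Its log2 fold change was 0.30 ± 0.35 (SE).

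**Figure D2:**
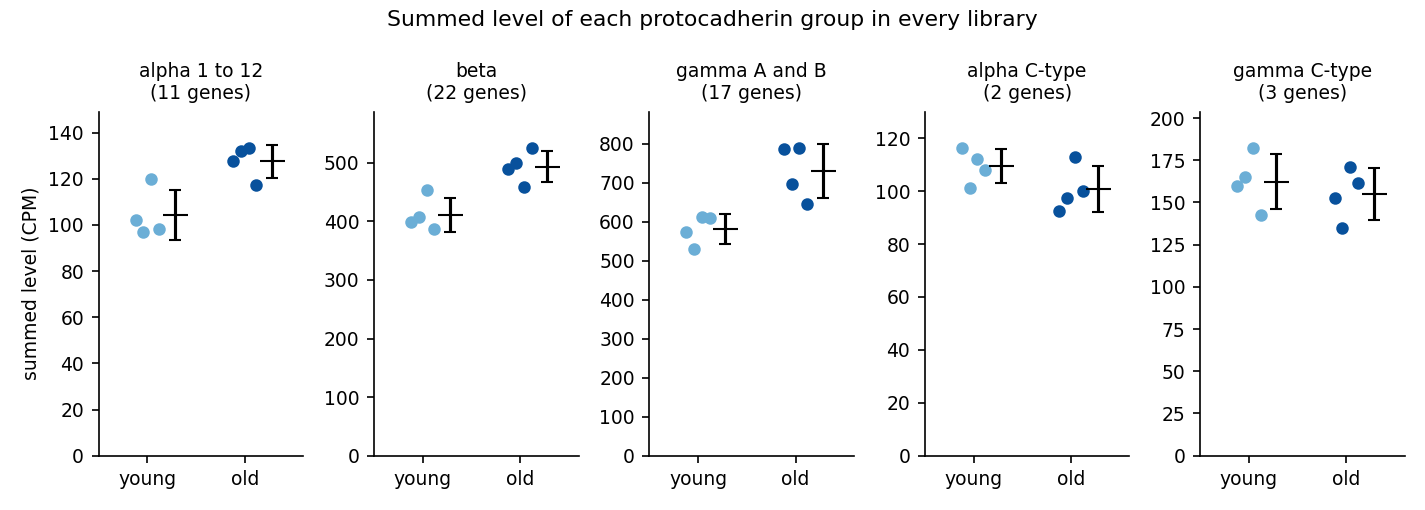
Summed level in CPM (y axis, from 0) of 5 groups of members in each young and old library. Points are single libraries and black bars show the mean ± SD of 4. The beta group and the gamma A and B group have all old libraries above all young ones, the alpha 1 to 12 group overlaps at its edge, and both C-type groups overlap broadly.

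The beta cluster had a summed level of 490, 501, 460 and 525 CPM in the old and 398, 408, 453 and 387 CPM in the young libraries. All old values lay above all young ones, with young 3 close to old 3. The means were 494 ± 27.0 and 412 ± 28.8 CPM (SD, n = 4 each), a log2 ratio of 0.26. Of 21 members tested, 16 were positive, with a median log2 fold change of 0.23, and 9 had an unadjusted p under 0.05. The member not tested, Pcdhb1, lies apart at the 5′ end and had 4 to 8 counts per library, 26 in all old and 22 in all young mice. Counts this low leave its age difference undetermined, and with no filter its log2 fold change was 0.23 ± 0.40 (SE).

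Within the beta cluster, differences were larger toward the 5′ end. The 13 members from Pcdhb2 to Pcdhb14 had a median log2 fold change of 0.53, 11 of them positive and 9 with an unadjusted p under 0.05. The 8 members from Pcdhb15 to Pcdhb22 had a median of 0.07, from -0.09 to 0.20, and none had an unadjusted p under 0.05. The boundary between these stretches was placed after the values were seen, so the contrast is a description. Summed, the Pcdhb2 to Pcdhb14 stretch had 254, 247, 238 and 286 CPM in old and 171, 169, 204 and 178 CPM in young mice, while the Pcdhb15 to Pcdhb22 stretch had 235, 252, 220 and 238 CPM in old and 226, 238, 248 and 209 CPM in young mice. The former stretch gave 49.4% to 54.5% of beta counts in old libraries and 41.6% to 45.9% in young ones. These shares need no scaling between libraries, and they did not overlap. Over the 21 members, Spearman's rho of the fold change with chromosomal position was -0.49. The members share the same 8 libraries and so are not independent.

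Pcdhb6 had the largest log2 fold change of the family, 0.89 ± 0.16 (SE), and just missed the threshold (edgeR adjusted p = 0.0567). It had 13.8, 13.7, 14.2 and 17.8 CPM in old and 9.31, 7.06, 8.18 and 7.58 CPM in young mice. Pcdhb5 and Pcdhb8 also had no overlap between groups, with 11.2 to 13.6 against 7.21 to 10.9 CPM for Pcdhb5 (0.45 ± 0.15, SE) and 10.8 to 16.4 against 7.72 to 10.4 CPM for Pcdhb8 (0.61 ± 0.17, SE). Within the same stretch, Pcdhb7 and Pcdhb10 had values of -0.05 ± 0.13 and -0.23 ± 0.18 (SE), so its members did not all share a direction. Pcdhb2, Pcdhb9, Pcdhb11, Pcdhb12 and Pcdhb13 had an unadjusted p under 0.05 with groups that overlapped, at 0.61 ± 0.18, 0.30 ± 0.13, 0.80 ± 0.16, 0.63 ± 0.23 and 0.53 ± 0.16 (SE each). At the other end, Pcdhb17 had 38.2 to 43.9 CPM in old and 37.2 to 47.0 CPM in young mice, which overlapped, with a log2 value of -0.02 ± 0.09 (SE). Pcdhb22, the last beta member, had -0.09 ± 0.12 (SE). For both, 2 SE to either side exclude a log2 difference as large as that of Pcdhb14, with upper bounds of 0.17 and 0.14.

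**Figure D3:**
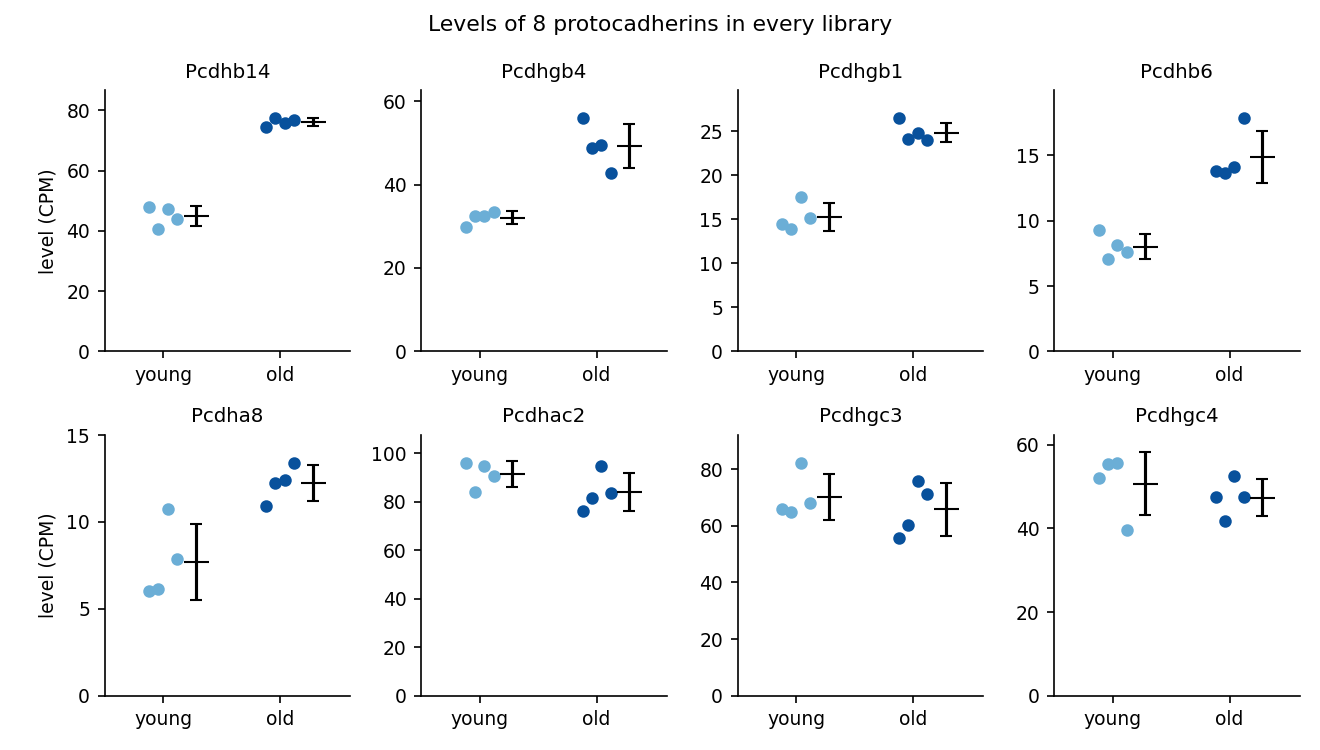
Level in CPM (y axis, from 0) of 8 members in each young and old library, with the mean ± SD of 4 as black bars. Old and young points stand apart for Pcdhb14, Pcdhgb4, Pcdhgb1, Pcdhb6 and Pcdha8, and mix for the C-type members Pcdhac2, Pcdhgc3 and Pcdhgc4.

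In the gamma cluster the alternative members fall into an A and a B subfamily, which alternate along the chromosome. Together they had 786, 698, 789 and 647 CPM in the old and 574, 530, 612 and 609 CPM in the young libraries. Old 4 was the lowest old library and still lay above young 3, the highest young one. The means were 730 ± 69.6 and 581 ± 38.1 CPM (SD, n = 4 each), a ratio of 1.26. Of these 17 members 16 were positive, with a median log2 fold change of 0.33, and 10 had an unadjusted p under 0.05. The 11 A members had a median of 0.24 and the 6 B members a median of 0.44, while their summed levels had log2 ratios of 0.31 and 0.35.

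Pcdhgb1, the B member nearest the 5′ end, had 26.5, 24.2, 24.8 and 24.0 CPM in old and 14.4, 13.95, 17.6 and 15.2 CPM in young mice. Its log2 fold change of 0.71 ± 0.12 (SE) was the largest of the gamma cluster and fell just outside the threshold (edgeR adjusted p = 0.0507). It was called in 8 of 20 alternatives, where the adjusted p ranged from 0.00408 to 0.194. Pcdhgb5 had 39.8 to 58.6 CPM in old and 31.5 to 35.1 CPM in young mice (0.55 ± 0.12, SE). Among A members, Pcdhga3 had 46.7 to 56.9 against 25.4 to 44.8 CPM (0.63 ± 0.15, SE), and Pcdhga6 had 49.4 to 54.2 against 36.8 to 44.0 CPM (0.38 ± 0.09, SE). Pcdhga4 had 22.6 to 28.1 against 16.1 to 21.2 CPM (0.39 ± 0.13, SE). None of these groups overlapped. The remaining A and B members had smaller or less even differences. Pcdhga1, at the 5′ end, had 9.75 to 14.3 CPM in old and 9.56 to 11.2 CPM in young mice (0.20 ± 0.16, SE), and Pcdhga11 had -0.01 ± 0.12 (SE). Pcdhga7, Pcdhga8, Pcdhga9 and Pcdhgb7 had an unadjusted p under 0.05 with groups that overlapped, at 0.24 ± 0.10, 0.54 ± 0.14, 0.37 ± 0.11 and 0.33 ± 0.12 (SE each).

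The 5 C-type members did not share the pattern of the alternative ones, as 4 had negative log2 fold changes, the median was -0.10 and none had an unadjusted p under 0.05. Leaving out single libraries gave medians from -0.14 without old 3 to -0.02 without young 3. Pcdhac2, known for the tiling of serotonergic axons, had 76.0, 81.6, 94.7 and 83.8 CPM in old and 96.2, 84.2, 94.6 and 90.6 CPM in young mice. The values mixed, and the log2 fold change was -0.12 ± 0.09 (SE), with a range of -0.30 to 0.05 at 2 SE. Pcdhac1 had 15.7 to 18.1 CPM in old and 16.9 to 20.0 CPM in young mice (-0.11 ± 0.12, SE). Pcdhgc3 had 55.8, 60.3, 75.9 and 71.3 CPM in old and 66.1, 64.8, 82.3 and 68.2 CPM in young mice (-0.09 ± 0.11, SE). Pcdhgc4, known for its part in neuronal survival, had 41.7 to 52.5 against 39.6 to 55.7 CPM (-0.10 ± 0.11, SE). Pcdhgc5 had 32.5 to 49.4 against 35.1 to 44.5 CPM (0.02 ± 0.12, SE), and its sign changed with the fit. The upper bounds at 2 SE for these 5 genes lay between 0.05 and 0.25.

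The C-type share of a cluster's counts is free of scaling between libraries. In the alpha cluster it was 42.1%, 42.4%, 45.8% and 46.0% in the old and 53.2%, 51.1%, 48.3% and 52.3% in the young libraries, so every old share lay below every young one. In the gamma cluster it was 16.3%, 16.2%, 17.8% and 20.0% in old and 21.8%, 23.7%, 22.9% and 19.0% in young libraries. There young 4 lay below old 4, so the groups overlapped. These shares depend on the lengths of the exons counted and compare ages, not genes. The contrast of C-type with alternative members was not tested.

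Levels of different genes were compared per kilobase of exon not shared with another listed gene. In the alpha cluster Pcdhac2 stood at 29.0 ± 2.42 CPM per kb (SD, n = 8), next came Pcdha9 at 7.16 ± 1.08 and Pcdhac1 at 6.77 ± 0.52, which did not differ beyond their spread, and Pcdha4 was lowest at 0.64 ± 0.31. In the gamma cluster Pcdhgb6 was highest at 33.6 ± 3.67 CPM per kb, followed by Pcdhgc3 at 20.1 ± 2.50, and Pcdhga1 was lowest at 3.44 ± 0.47. Among beta members Pcdhb9 had 10.7 ± 1.92 and Pcdhb17 had 9.0 ± 0.67 CPM per kb, against 0.36 ± 0.08 for Pcdhb1. Pcdhgb6 and Pcdhb9, the highest of their clusters, had log2 fold changes of 0.17 ± 0.09 and 0.30 ± 0.13 (SE each), not among the largest. Pcdhb14, with a log2 fold change of 0.76, ranked 5 in the beta cluster, at 6.95 ± 1.93 CPM per kb.

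Along the alpha and beta clusters, levels per kilobase tended upward from the 5′ to the 3′ end, and along the gamma cluster only weakly. Spearman's rho of level with position was 0.67 over 13 alpha, 0.55 over 21 tested beta and 0.22 over 20 gamma members. Leaving out the C-type members, it was 0.48 for alpha and 0.28 for gamma. The fold change of the alpha and gamma members, C-type included, went the other way, with rho of -0.46 and -0.47. Without the C-type members rho was -0.10 over 11 alpha and -0.15 over 17 gamma genes. In the gamma cluster, rho of the fold change with the share of 50-base stretches found in other genes was 0.59, and 0.45 without the C-type members, so members with more shared sequence tended to have larger age differences. The same rho was 0.38 over 13 alpha members, -0.02 without the C-type ones and -0.07 over 21 beta members. In the gamma cluster the share also differed by subfamily. B members had shares of 2.67% to 16.8% and a median log2 fold change of 0.44, against 0.24 for A members. Among A members shares ran from 0.0% to 39.5%, the highest in Pcdhga4, where gene models overlap. The part of close copies, overlapping models or subfamily in the gamma differences was not tested. In the alpha cluster, rho of the fold change with the level per kilobase was -0.61, and -0.44 without the C-type members. It was weaker in the beta cluster, at -0.32, and in the gamma cluster, at -0.11, or -0.07 without the C-type members. The order of members by CPM was largely shared between ages, with rho of 0.93, 0.84 and 0.88 for alpha, beta and gamma. These correlations are across genes of the same libraries and are descriptions.

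**Figure D4:**
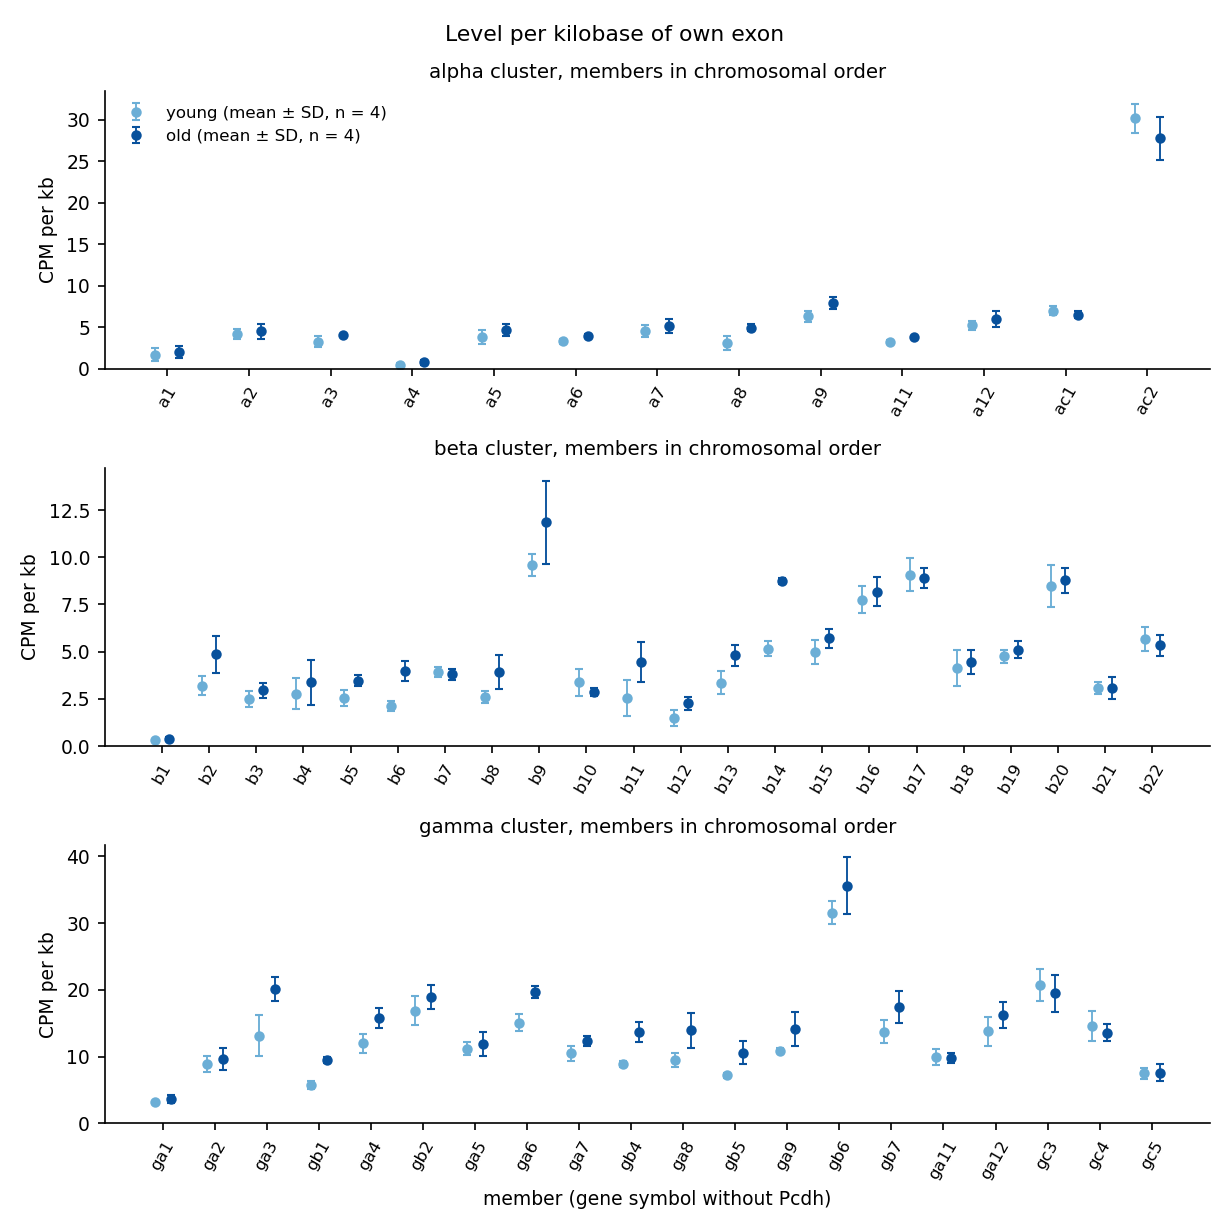
Mean level ± SD (n = 4) in CPM per kb of a member's own exon (y axis, from 0) for young and old libraries, with the members of each cluster in chromosomal order on the x axis. Pcdhac2 and Pcdhgb6 stand highest in their clusters, and old points lie above young ones through the beta cluster up to b14 more than beyond it.

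No member was called for sex, and the background was 0.0423% of genes by edgeR. At an unadjusted p under 0.05 there were 2 members, Pcdhb11 and Pcdhb4, both higher in females, at 0.68 ± 0.16 and 0.57 ± 0.21 (SE, log2 female over male), against a background of 4.76%. DESeq2 called none and had 2 members under an unadjusted 0.05. The interaction of age and sex, with 2 animals in each of 4 cells, gave no called member by edgeR or DESeq2 (background 0.0%). It had 4 members at an unadjusted p under 0.05 by edgeR and 1 by DESeq2, against a background of 2.3%. These 4 were Pcdhga12, Pcdhga8, Pcdhgb5 and Pcdhga5. In all 17 alternative gamma members the age difference was smaller in females than in males, with a median interaction of -0.29 on the log2 scale. Among all genes tested, 7376 of 14191 had a negative interaction, with a median of -0.01. As single libraries were left out, 16 or 17 of the 17 stayed negative. These members share the same libraries and so are not independent. The summed level of the 17 members was 786 to 789 CPM in old and 530 to 574 CPM in young males, and 647 to 698 CPM in old and 609 to 612 CPM in young females. Both sexes were higher when old, and the interaction did not pass the adjusted test for any member.

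**Figure D5:**
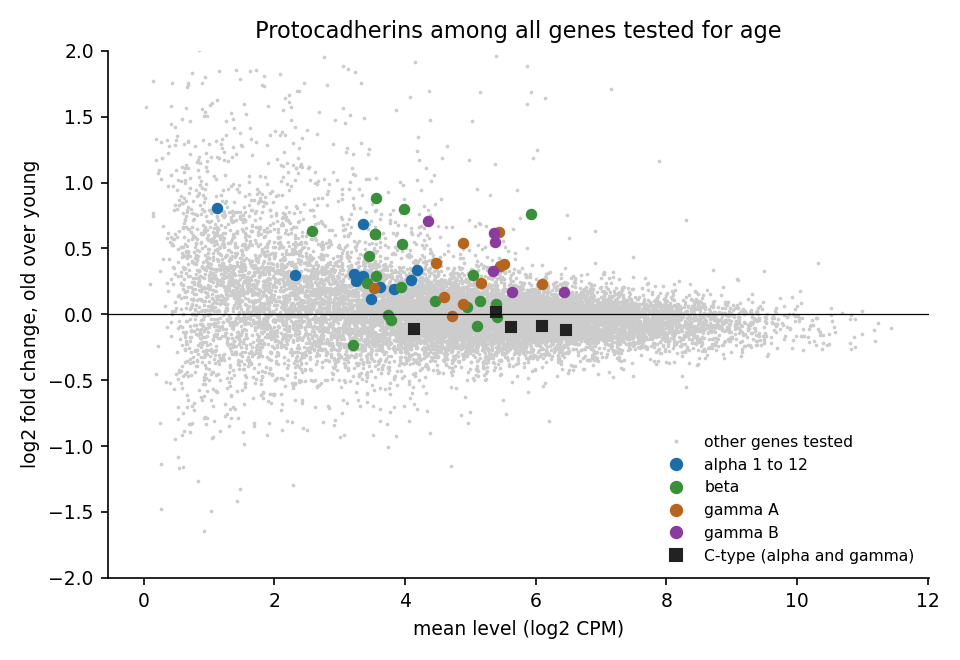
Log2 fold change of old over young (y axis) against mean level in log2 CPM (x axis) for all genes tested, with the 54 members tested in colour. The y axis ends at 2 in both directions, which leaves out 37 other genes. Members of the alpha, beta and gamma A and B groups lie mainly above 0, at levels where most genes spread little, and the C-type squares lie at or just below 0.

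Of 20 genes beside and between the clusters, 17 had negative values, against 51.4% of all genes tested, and the median log2 fold change was -0.13. By edgeR's test none was called, and 5 were lower in old mice at an unadjusted p under 0.05, against a background of 5.76%. Their summed level was 1061, 1079, 1111 and 1075 CPM in old and 1203, 1202, 1148 and 1169 CPM in young mice, with every old value below every young one. Taf7, a general transcription factor gene that lies between the beta and gamma clusters, had -0.12 ± 0.08 (SE). Diaph1, an actin regulator next to the end of the gamma cluster, had -0.01 ± 0.11 (SE). The values with the smallest p were those of Rell2 at -0.36 ± 0.13, Pcdh1, a non-clustered protocadherin, at -0.19 ± 0.07, Ndufa2, a subunit of respiratory complex I, at -0.33 ± 0.13 and Rnf14 at -0.18 ± 0.08 (SE each).

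Of 26 tested genes for chromatin regulators of the locus, which included CTCF, cohesin and DNA methylation and hydroxymethylation enzymes, 9 were positive and 17 negative, with a median of -0.03 and no call. Smc3, a cohesin ring subunit, had 141 ± 2.81 CPM in old and 159 ± 14.2 CPM in young mice (SD, n = 4 each) and a log2 fold change of -0.18 ± 0.08 (SE). Pds5b, a cohesin regulator, had -0.18 ± 0.08, Ehmt2, a histone H3 methyltransferase, -0.16 ± 0.07, and Zfp143, a promoter-binding factor, 0.26 ± 0.13 (SE each). Of 26 partners and signalling genes of the clustered protocadherins, 11 were positive and 15 negative, with a median of -0.05 and no call. Among those with the smallest p were Nlgn2, a neuroligin of inhibitory synapses, at -0.26 ± 0.09, Pdcd10 at 0.32 ± 0.13 and Psenen, a gamma-secretase subunit, at -0.48 ± 0.21 (SE each).

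Members of several cell type marker lists mostly shared a sign. The only marker called in the lists of cerebellar and other cell types was Fabp7, a fatty acid binding protein of Bergmann glia, which fell from 39.6 ± 5.93 to 22.4 ± 4.67 CPM (SD, n = 4 each), a log2 difference of -0.82 ± 0.12 (SE) with an edgeR adjusted p = 0.0282. In the list for astrocytes and Bergmann glia, 11 of 13 genes had values below 0, and their summed level was 6468 to 8015 CPM in old and 6889 to 9369 CPM in young mice, which overlapped. All 11 microglia markers had positive log2 fold changes, and their summed level was 231 to 460 CPM in old and 140 to 182 CPM in young mice, without overlap. Of 14 granule neuron markers 13 had negative values, with a summed level of 5323 to 7381 CPM in old and 5866 to 9052 CPM in young mice. Of 15 Purkinje cell markers 14 had negative values, with 5762 to 7539 against 6402 to 8086 CPM. Choroid plexus markers were positive in 10 of 10, at 50.8 to 1048 against 38.7 to 473 CPM, and serotonin neuron markers in 5 of 5, at 21.7 to 70.3 against 18.9 to 49.2 CPM. Oligodendrocyte markers were negative in 8 of 9, at 4013 to 5304 against 3711 to 6229 CPM, and the 5 liver genes tested were all positive. Apart from microglia, the summed levels of these lists overlapped between ages. With granule neuron score added to the fit 42 of 54 members were positive and 6 were called, and with the choroid plexus score 45 were positive and 1 was called. The part of the microglia, glial and serotonin neuron markers in the protocadherin values was not tested.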

How the data were processed

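Total RNA of frozen cerebellum was made into ribosomal RNA-depleted libraries, per the labels' protocols. The authors deposited raw counts per gene, 1 table per library. The submitters' processing notes name STAR 2.7.5b, featureCounts and the builds GRCm38 and mm10. For annotation, strand and multi-mapping no setting is given in the sources used here. Spreadsheet dates replaced 24 gene names in 7 tables, which were joined by row.

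Libraries totalled 6079485 to 7236720 counts, and none agreed within sampling noise. Genes were filtered by edgeR's filterByExpr (minimum 10 counts), leaving 14191, and scaled by TMM. Age and sex were fitted by quasi-likelihood in edgeR 4.0.16 under R 4.3.3, with Benjamini-Hochberg adjustment over all genes, and the fit was checked on simulated data. The SE was derived by dividing the size of each log2 fold change by the square root of its F statistic. Marker scores use log2 CPM with a prior count of 2. Coordinates and exon lengths are from GENCODE M21 (GRCm38). Of the 2 models named Pcdha11, the 3′ one was used. The 50-base comparison left out chromosome 18 models that the tables do not list, and kept bases where listed models overlap.

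Members given in full were those called, those whose groups did not overlap, the C-type members, the ends of each cluster, the 2 highest per length and the one nearest the minimum. Further genes are the up to 4 of each pathway list with the smallest p. 1 of these is not reported here. Members and lists were chosen with earlier results of these data known. Alternatives were DESeq2 1.42.0 size factors and Wald test, limma-voom (limma 3.58.1), other filters, dispersions, covariates and lengths, the replicate number as a block, and libraries left out.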

Additional observations from a re-analysis of the deposited data

Results flagged for a closer look

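Among the members given in full and 5 summed groups, 60 groups of 4 libraries were examined for a library standing apart by Dixon's criterion, which chance meets in about 1 of 20 groups. Pcdhb6 in old 4 stood at 17.8 CPM, against 13.7 to 14.2 CPM in the other 3 old libraries. Pcdhgb6 in old 3 stood at 108 CPM, against 84.0 to 87.3 CPM in the other 3 old libraries. As single libraries were left out, the log2 fold change of Pcdhb6, 0.89, ranged from 0.78 to 0.996. That of Pcdhgb6, 0.17, ranged from 0.0755 without old 3 to 0.22 without young 4.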

How the results depend on the processing

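The number of members called, 2, was 7 by the DESeq2 Wald test, 1 by limma-voom, 4 with no term for sex, 5 with age in weeks, 6 with a granule neuron covariate, 1 with a choroid plexus covariate, 4 without old 2, old 3 and young 4, and 0 to 2 as each library was left out (0 without young 3 and 0 without young 4). The 17 genes called in all became 125, 1, 24, 103, 132, 2, 184 and 0 to 63 in the same order, and 26 with the older edgeR dispersions. With the replicate number as a block, 1 member and 11 genes were called. Same-numbered libraries, as deviations from the mean of their age group, correlated at 0.16, -0.22, -0.05 and -0.25. Differently numbered ones ranged from -0.49 to 0.48. Sex was not removed and some same-numbered libraries differ in sex, so these values cannot decide whether the numbers mark shared handling. The median log2 fold change of the C-type members was -0.20 without old 2, old 3 and young 4, and ranged from -0.14 to -0.0175 (without young 3) as single libraries were left out. No member was called for sex or the interaction in any alternative run. The log2 fold change of Pcdhb17 was 0.0025 with the filter of 50 counts and ranged from -0.0707 to 0.0183 as libraries were left out. That of Pcdhgc5 was -0.0193 by limma-voom, -0.066 with the granule neuron covariate, and ranged from -0.0473 to 0.105 as libraries were left out. The cause of these changes was not tested. Counts of positive members and the medians and summed ratios of the alternative members kept their direction throughout. With all exonic bases, rho of level with position was 0.81 for alpha and 0.42 for gamma.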
